A study of Mus musculus with 4 samples.

Results

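The cells described here are endothelial cells of the mouse embryo that carried transcripts of at least 2 of the 3 genes Apcdd1, Foxq1 and Lef1. They numbered 923 of 17003 endothelial cells and of 44168 cells of all types kept from the whole series. A kept cell had at least 2000 UMIs (unique molecular identifiers, each standing for 1 captured transcript), at least 1000 detected genes and a mitochondrial share under 25%. Kept cells as a whole were not filtered on the leukocyte gene Ptprc. A kept cell counted as endothelial when it had no UMI of Ptprc and at least 3 of the 6 genes Cdh5, Pecam1, Tie1, Egfl7, Kdr and Esam. The summed UMIs of those 6 genes also had to reach 8 per 10000 UMIs of the cell. Cells with 2 or more UMIs of the lymphatic gene Prox1 or of the haemogenic gene Runx1 were left out, as were cells with 2 or more of the 4 genes Tll1, Flrt2, Adgrg6 and Lhx6. The comparison cells were 6848 endothelial cells that met the same exclusions and had no UMI of Apcdd1, Foxq1 or Lef1. The selecting genes were chosen from values of these same libraries, so their levels are given as a description only.

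The study sorted CD31-positive cells of the E11.5 (embryonic day) aorta-gonad-mesonephros (AGM), the region of the trunk in which definitive haematopoietic stem cells arise, by the dye TMRM, which accumulates in mitochondria according to their membrane potential. The libraries were 2 of cells with low mitochondrial membrane potential (MMPlow) and 2 with high potential (MMPhigh), all from C57BL/6J embryos with no other allele or agent named, prepared with the 10x Genomics 3' kit, version 3. The labels name neither the number of embryos pooled nor whether the libraries of a group came from separate sorts, so the spread between libraries may be technical. CD31 is also carried by many haematopoietic cells, and few MMPhigh cells were endothelial. Of the kept cells, 7769 of 16700 were endothelial in MMPlow 1 and 9171 of 19579 in MMPlow 2, against 44 of 4403 in MMPhigh 1 and 19 of 3486 in MMPhigh 2. The cells under study numbered 424 in MMPlow 1, 487 in MMPlow 2, 9 in MMPhigh 1 and 3 in MMPhigh 2, and no barcode among them was shared between libraries. Deposited library totals ran from 51800709 to 120168395 UMIs, and the median kept cell had 3145 UMIs in MMPlow 1, 3741 in MMPlow 2, 3685 in MMPhigh 1 and 24044.5 in MMPhigh 2.

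Wnt proteins signal through Frizzled receptors and the co-receptors Lrp5 and Lrp6, which stabilise β-catenin. In the nucleus β-catenin acts with DNA-binding factors of the Tcf and Lef family, of which Lef1 is a member, and it raises a set of feedback genes such as Axin2 and Nkd1. Apcdd1 encodes a membrane-bound Wnt inhibitor that is itself a target of the pathway, and Foxq1 encodes a forkhead transcription factor. In blood vessels this pathway is best known from the brain and spinal cord, where ligands of neural progenitors act on the invading endothelium and the vessels acquire nutrient transporters, efflux pumps and tight junctions of the blood-brain barrier while losing the fenestral protein Plvap.

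Promoter sequence is shown for 2 genes whose levels are described in the next paragraphs, the matrix proteoglycan gene Spock2 and the efflux pump gene Abcb1a, because both hold a core Tcf/Lef recognition sequence. The sequences are the 250 bases before the annotated start, from RefSeq on the build GRCm38.p6, 5′ to 3′ along the gene's strand, and capitals mark each match to CTTTGAA or CTTTGAT on either strand. The Spock2 window is chr10:60106007-60106256 on the plus strand, and its match begins 133 bases before the start. The Abcb1a window is chr5:8566841-8567090 on the plus strand, with matches that begin 153 and 59 bases before the start, the second on the opposite strand.
Spock2: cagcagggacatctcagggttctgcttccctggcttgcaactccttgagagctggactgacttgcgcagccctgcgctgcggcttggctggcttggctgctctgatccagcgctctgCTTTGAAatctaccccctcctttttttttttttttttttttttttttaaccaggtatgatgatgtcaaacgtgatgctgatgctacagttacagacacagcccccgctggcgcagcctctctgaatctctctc
Abcb1a: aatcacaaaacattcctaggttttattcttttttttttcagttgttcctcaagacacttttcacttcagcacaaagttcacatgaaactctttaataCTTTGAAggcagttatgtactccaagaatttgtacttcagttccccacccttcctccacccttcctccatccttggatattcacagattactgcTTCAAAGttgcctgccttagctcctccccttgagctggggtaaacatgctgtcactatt
Promoter windows of 300 bases were matched for 29 of the 37 genes that were called higher in the central nervous system or Wnt target lists or had the 12 largest fold changes. A match stood in 6 of their 40 windows (15%), those of Abcb1a, Slc3a2, Slc7a1, Spock2, Stra6 and Tnfrsf19, against 8.65% of all 32851 windows. Of the 7 Wnt target genes called higher, 4 had a promoter window, and 1 of these, Tnfrsf19, held a match. Spock2 was picked as a marker from these same libraries. A match is a run of letters and not a shown binding site.

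Among the 911 cells of the 2 MMPlow libraries, Apcdd1 with Lef1 was the most frequent combination, with 471 cells. Foxq1 with Lef1 was found in 204 cells, Apcdd1 with Foxq1 in 58, and all 3 genes in 178. The selecting genes were summed over the cells of a library and scaled to CPM, the UMIs of a gene per 1e6 UMIs of the summed cells. Apcdd1 (ENSMUSG00000071847) stood at 238 CPM in MMPlow 1 and 233 CPM in MMPlow 2, Foxq1 (ENSMUSG00000038415) at 140 and 123 CPM, and Lef1 (ENSMUSG00000027985) at 411 and 385 CPM, with 0 in the comparison cells by construction. The other 3 genes that mark the group, Cdh2, Spock2 and Palmd, were not used by the rule but were picked as markers from these same libraries, so their higher levels are likewise a description. Cdh2, which encodes N-cadherin, reached 1248 and 1340 CPM against 209 and 220 CPM, a log2 fold of 2.65 ± 0.036 (SE). Spock2 reached 152 and 134 CPM against 8.49 and 8.98 CPM (log2 fold 4.07 ± 0.10), and Palmd, which encodes the cytoskeletal protein palmdelphin, 142 and 179 CPM against 26.1 and 29.9 CPM (log2 fold 2.57 ± 0.085). Of the 6 pan-endothelial genes, which gated both sets and are given as a description, Cdh5 stood at 405 and 364 CPM against 466 and 441 CPM and Kdr at 729 and 772 CPM against 576 and 619 CPM.

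The test was edgeR's quasi-likelihood test on the summed UMIs of the 2 MMPlow libraries, with the library as a term and Benjamini-Hochberg adjustment over all genes. It called 2725 of 14038 genes (19.4%), 1516 higher (10.8%) and 1209 lower (8.61%), and 623 genes (4.44%) had a log2 fold of at least 1 in size. The fit rests on 4 sums with 1 residual degree of freedom, so most of its spread is borrowed across genes and small p-values reflect mainly the counts. DESeq2 called 705 genes, 67.5% of them higher, and edgeR without the library term called 1209. The selected cells were also deeper: their median was 4184.5 UMIs in MMPlow 1 and 4638 in MMPlow 2, against 3025 and 3335 in the comparison cells. With both sets held to the interquartile range of the selected cells' depth, 1390 genes were called. The median log2 fold over all genes was 0.00.

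Most tested genes known from the endothelium of the central nervous system were higher in these cells. Of 27 tested, 20 rose and none was called lower, against a background of 10.8% of all genes called higher, and the list's median log2 fold was 1.6. The count of higher genes lay between 16 and 21 over the alternative fits to the same comparison, and 6 of these fits called 1 listed gene lower, Ptn or Slc16a1. The 7 that were not called were Slc16a1, Ptn, Id4, Ocln, Marveld2, Abcc4 and Slc38a5. Slco1a4 and Spock1, also on the list, were too low to test, and Slco1a4 had no UMI in either cell set.

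Transporter genes were among those that rose, whereas the transporter genes Slc16a1, Abcc4 and Slc38a5 were not called. Slc2a1, the glucose transporter of barrier vessels, reached 341 and 367 CPM against 117 and 125 CPM (3.04-fold). Slc7a5 and Slc3a2, which form the large neutral amino acid transporter, reached 153 and 102 CPM against 22.7 and 12.2 CPM (7.68-fold) and 152 and 146 CPM against 49.8 and 52.4 CPM (3.01-fold). Both chains of that transporter were thus higher in each library, the Slc7a5 chain by the greater fold. Mfsd2a (ENSMUSG00000028655), the lysophosphatidylcholine transporter that limits transcytosis in brain vessels, had the largest fold among the 24 genes named by size. Mfsd2a stood at 20.5 and 23.9 CPM against 1.27 and 1.17 CPM, a log2 fold of 4.23 ± 0.29 with an adjusted p of 7.78e-46. The thyroid hormone transporter Slco1c1 stood at 8.01 and 11 CPM against 1.61 and 1.31 CPM, and the glutamine transporter Slc38a3 at 10.5 and 9.88 CPM against 1.87 and 2.56 CPM. The transferrin receptor Tfrc, through which iron enters the brain, reached 185 and 188 CPM against 38.3 and 33.1 CPM (5.45-fold). The efflux pump Abcb1a (P-glycoprotein), whose promoter is shown above, reached 38.0 and 55.1 CPM against 6.45 and 7.39 CPM (7.02-fold). The efflux pump Abcg2 rose by less, with 258 and 279 CPM against 199 and 215 CPM (1.34-fold).

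Some factors and junction genes of the same list also rose, whereas the factor Id4 and the junction genes Ocln and Marveld2 were not called. Foxf2, a forkhead factor of brain mural cells and endothelium, stood at 13 and 19 CPM against 1.78 and 2.28 CPM (8.15-fold). Foxl2 had 6.50 and 7.22 CPM against 1.53 and 1.31 CPM, a level that rests on few UMIs. The secreted protein Igfbp7 stood at 136 CPM in both libraries against 16.5 and 18.2 CPM (8.08-fold). The phospholipid transfer protein Pltp and the membrane protein Itm2a rose 5.47-fold and 4.12-fold. The tricellular junction gene Lsr rose 5.91-fold from a low level, to 22.0 and 23.9 CPM. Claudin 5 (Cldn5), the main tight junction claudin of endothelium, was high in both cell sets and rose 1.73-fold, with 449 and 447 CPM against 289 and 253 CPM.

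**Figure D1:**
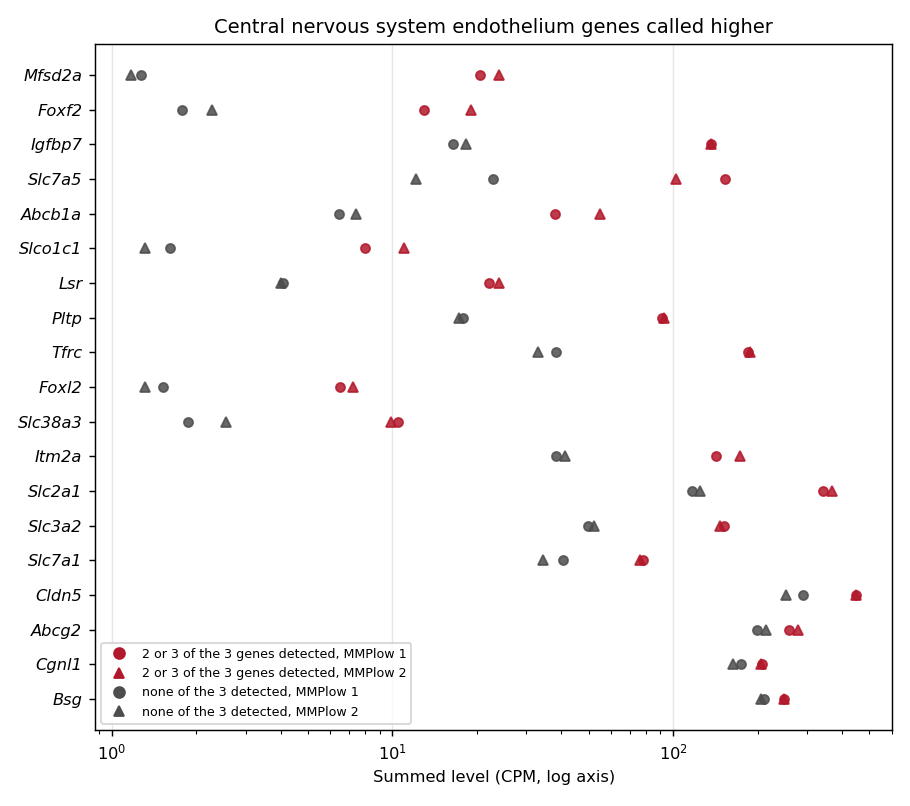
Summed level in CPM on a log axis of 19 of the 20 central nervous system endothelium genes called higher, in cells with at least 2 of the 3 selecting genes (red) and with none (grey). Circles are MMPlow 1 and triangles MMPlow 2, and for each gene both red points lie to the right of both grey points.

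Part of the list of Wnt targets and feedback genes rose. Of 15 listed targets tested, 7 rose and 3 fell, against 10.8% of all genes called higher and 8.61% called lower, with a median log2 fold of 0.56. Nkd1, which restrains Dishevelled, reached 108 and 106 CPM against 10.6 and 9.95 CPM (10.8-fold), and Tnfrsf19 (Troy) reached 85.6 and 94.2 CPM against 13.8 and 12 CPM (7.31-fold). Axin2, the scaffold of the destruction complex, stood at 25 and 20.5 CPM against 5.01 and 4.63 CPM (4.86-fold). Tcf7, a DNA-binding partner of β-catenin, stood at 18 and 20.9 CPM against 5.77 and 5.04 CPM (3.78-fold). Znrf3, a ligase that removes Frizzled receptors, rose 1.93-fold, Bambi 1.73-fold and the SoxF factor Sox17 1.6-fold. In each library these 7 genes stood above the comparison cells. Sox17, which is also on the arterial list, was called lower against the gated arterial cells described further on. The 3 that fell were Ccnd1 (cyclin D1), at 136 and 150 CPM against 173 and 172 CPM, Cd44, and the Wnt modulator Dkk2, at 4.50 and 10.6 CPM against 23.1 and 30.7 CPM. Myc, Lgr5, Fzd7, Nkd2 and Tle4 were not called, and Notum, Sp5 and Rnf43 were too low to test.

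Of 26 receptors and transducers tested, 4 rose and 6 fell, beside 10.8% and 8.61% of all genes, and the median log2 fold was −0.11. The count of 4 that rose lies near the share over all genes, whereas the count of 6 that fell lies above it. No test was made on the list, and what follows describes single genes. Fzd6 rose 2.66-fold (57.5 and 78.7 CPM against 25.2 and 28.3 CPM) and Fzd10 rose 2.38-fold (40.0 and 29.6 CPM against 17.7 and 12.7 CPM). Tspan12, a partner of Fzd4 in Norrin signalling, rose 1.68-fold, whereas Fzd4 itself fell to 32.5 and 33.4 CPM against 53.4 and 57.8 CPM (0.614-fold). The receptor Fzd5, low in both sets, was called lower at 0 and 0.380 CPM (0 and 1 UMIs) against 1.95 and 1.66 CPM. The factors Tcf7l1 and Tcf7l2 fell to 0.636-fold and 0.738-fold, and Ror1 and Ror2, receptors of β-catenin-independent signalling, to 0.640-fold and 0.528-fold. Adgra2 and Reck, which serve Wnt7 reception in brain vessels, stood at 62.5 and 53.2 CPM against 64.3 and 66.9 CPM and at 28.5 and 34.6 CPM against 30.9 and 34.5 CPM, and neither was called. Ctnnb1, the β-catenin gene, stood at 312 and 345 CPM against 313 and 340 CPM. Wnt ligands were scarce in both cell sets: 7 of 21 ligands and agonists could be tested, and the 1 that was called, the agonist Rspo3, fell to 9.51 and 4.18 CPM against 13.6 and 18 CPM. Among 6 antagonists tested, Dkk3 was called, at 4.0 and 11.4 CPM against 1.95 and 1.31 CPM.

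Genes of fenestrated and peripheral vessels were mostly lower than in the comparison cells, a mixed set whose clusters are described below. Of 10 tested, 8 fell and none rose, against a background of 8.61%, and the median log2 fold was −0.81; without the library term 5 fell. Lyve1, a hyaluronan receptor of lymphatic and sinusoidal endothelium, had the smallest fold among the 24 genes named by size, with 2.00 and 3.42 CPM against 28.5 and 27.5 CPM (log2 fold −3.26 ± 0.27, adjusted p = 1.32e-31). Aqp1 stood at 1.5 and 0.760 CPM against 7.98 and 7.53 CPM, and Oit3 at 6.50 and 3.42 CPM against 21.0 and 25.4 CPM. Plvap fell by a small amount, to 269 and 288 CPM against 322 and 338 CPM (0.877-fold), so the fenestral diaphragm gene was still present. Emcn (endomucin) fell to 0.878-fold and Igfbp3 to 0.465-fold. The sinusoidal receptor Stab2 differed widely, at 37.5 and 17.1 CPM against 189 and 230 CPM, but was not called (SE of the log2 fold 0.49, adjusted p = 0.22).

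**Figure D2:**
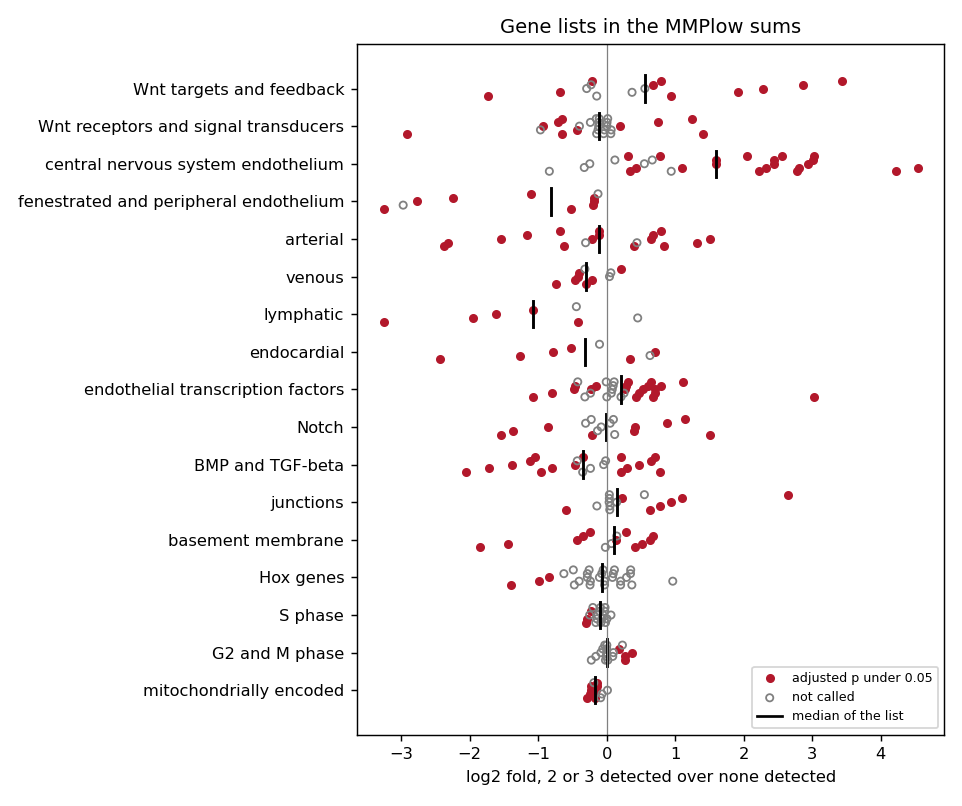
Log2 fold of each tested gene of 17 lists, cells with at least 2 selecting genes over cells with none, with red points for an adjusted p under 0.05, open points for genes not called and a black bar at each list's median. The median of the central nervous system endothelium list stands at 1.6 and that of the fenestrated and peripheral list at −0.81.

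Arterial genes changed in both directions and venous genes were mostly lower. Of 18 arterial genes, 7 rose and 9 fell (10.8% and 8.61% of all genes), with a median log2 fold of −0.11. The connexin Gja4 rose to 101 and 96.5 CPM against 58.0 and 55.9 CPM, whereas the connexin Gja5, a marker of large arteries, fell to 3.50 and 6.46 CPM against 25.9 and 27.4 CPM. The Notch ligand Jag1 rose 2.84-fold, the chemokine Cxcl12 2.50-fold and the receptor Acvrl1 1.57-fold. Efnb2 (0.626-fold), Vegfc (0.446-fold), Bmx (0.192-fold) and Hey2 (0.345-fold) fell. Of 10 venous genes, 6 fell and 1, the apelin receptor Aplnr, rose, to 153 and 157 CPM against 145 and 135 CPM. The median log2 fold of the venous list was −0.31, and DESeq2 called 1 venous gene lower. The venous factor Nr2f2 fell to 72.1 and 86.3 CPM against 108 and 119 CPM. Of 7 lymphatic genes tested, 5 fell, among them Mrc1, Reln and Maf; Lyve1 and Flt4 stand in other lists as well. Of 8 endocardial genes, Nfatc1, Npr3, Gata4 and Gata6 fell and Hapln1 and Cgnl1 rose. Of 10 haemogenic genes tested, Myb, Ikzf2 and Itga2b fell and none rose, to between 0.653-fold and 0.693-fold. DESeq2, the fit at matched depth and the fit without the library term called none of the list lower. Mrc1, Ikzf2 and Itga2b were also leading genes of clusters that hold comparison cells, described further below.

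Endothelial transcription factors were called more often in the higher direction, with 14 of 31 higher and 6 lower, against 10.8% and 8.61% of all genes, and a median log2 fold of 0.21. Besides Foxf2 and Sox17 these were led by Lmo2, a bridging factor of endothelial and blood complexes, at 399 and 376 CPM against 184 and 186 CPM (2.17-fold). The inhibitor Id1, a target of BMP signalling, rose 1.63-fold, the flow-responsive factors Klf2 and Klf4 1.52-fold and 1.73-fold, and Ets1 1.44-fold. Tcf15, a factor of capillary endothelium, fell to 38.5 and 37.2 CPM against 65.9 and 70.3 CPM. In the BMP and TGF-β list, 7 of 21 genes rose and 9 fell, beside the same 10.8% and 8.61%. The ligands Bmp4 (0.484-fold) and Bmp6 (0.305-fold) and the inhibitors Smad6 (0.515-fold) and Smad7 (0.730-fold) were lower, and the ligand Tgfb2 (1.73-fold) and the receptors Bmpr2 (1.22-fold) and Acvrl1 were higher. In the Notch list 5 of 16 genes rose and 4 fell, again beside 10.8% and 8.61% of all genes; the modifier Lfng rose 2.21-fold and Jag2 1.84-fold, and Dll4 was not called, at 24.5 and 19.0 CPM against 26.4 and 28.3 CPM.

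Of 15 junction genes tested, 6 were called higher (10.8% of all genes); 1 of the 6 is Cdh2, picked as a marker from these libraries, so that 5 of the other 14 rose, among them Cldn5, Jam2 (2.14-fold) and Cdh13 (1.93-fold), and the protocadherin Pcdh17 fell to 326 CPM in both libraries against 488 and 531 CPM. Of 14 basement membrane genes, 6 rose and 5 fell (10.8% and 8.61% of all genes): Sparc stood at 1135 and 1164 CPM against 712 and 779 CPM, whereas the collagen gene Col15a1 stood at 71.6 and 80.2 CPM against 214 CPM in both libraries. Of 15 genes of angiogenic tip cells tested, 6 rose and 4 fell (10.8% and 8.61%); the stem and tip cell antigen Cd34 rose 1.74-fold and Esm1 and Kcne3 fell to 0.529-fold and 0.424-fold. Of 27 Hox genes tested, 24 were not called and 3 were called lower, which is near the 8.61% of all genes; Hoxa5, Hoxb2 and Hoxb3 fell to between 0.381-fold and 0.557-fold. Hoxa9 stood at 39.5 and 40.3 CPM against 34.5 and 33.4 CPM.

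Many genes of the cell cycle and of energy metabolism were not called, and the counts of called genes depended on the fit. Not called were 15 genes of S phase, 14 of G2 and M phase, 10 of glycolysis and 4 encoded in mitochondrial DNA. Of 18 S phase genes, 3 fell (Mcm2, Hells and Uhrf1), beside 8.61% of all genes, and of 18 genes of G2 and M phase 4 rose, beside 10.8%, none by more than the 1.29-fold of Ccna2. Without the library term no S phase gene was called lower and no gene of G2 and M phase higher. Cdkn1a, the cyclin-dependent kinase inhibitor p21, was nevertheless among the 12 largest folds, with 76.6 and 71.1 CPM against 8.23 and 7.46 CPM (9.75-fold). Of the 13 genes encoded in mitochondrial DNA, 9 fell and none rose (8.61% and 10.8% of all genes), with a median log2 fold of −0.17. At matched depth 3 were called lower, and none without the library term, among cells of at least 5000 UMIs or with the rule applied after thinning. The median mitochondrial share of a cell was 3.19% and 3.91% against 3.71% and 4.35%. Of 19 glycolysis genes tested, 4 rose, with Slc2a1 the largest, and 5 fell (10.8% and 8.61% of all genes), among them the transporter Slc2a3 (0.461-fold) and the hexokinase Hk2 (0.463-fold). Without the library term 1 glycolysis gene was called higher and 2 lower.

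The remaining genes with the 12 largest folds were of mixed kinds. Htra3, a secreted serine protease, stood at 38.5 and 44.8 CPM against 3.31 and 1.80 CPM (17.5-fold), and Dgki, a diacylglycerol kinase, at 61.0 and 79.0 CPM against 5.01 and 5.87 CPM (13.4-fold). Stra6, the membrane receptor through which retinol enters cells, stood at 43.0 and 50.5 CPM against 4.07 and 3.73 CPM (12.5-fold). Ccdc141 (11.2-fold), the lipocalin Apod (10.2-fold), the matrix protein Egflam (9.27-fold) and the transcripts 1700111E14Rik (13.6-fold) and 1700018A04Rik (13.1-fold) completed them. Among the 12 smallest folds, besides Lyve1, Gja5 and Oit3, the endocardial and sinusoidal factor Gata4 stood at 10.0 and 2.66 CPM against 29.5 and 35.4 CPM. Gata4 was not called by DESeq2 (adjusted p = 0.121), and its log2 fold was −1.5 from MMPlow 1 alone and −3.68 from MMPlow 2 alone. The phosphodiesterase Pde3a (0.185-fold), the channel Trpm3 (0.181-fold), the sorting receptor Sorcs1 (0.137-fold), Gm16271 (0.125-fold), Fabp4 (0.206-fold), Ehd3 (0.214-fold), Prdm16 (0.226-fold) and the prostaglandin-degrading enzyme Hpgd (0.282-fold) were also lower in both libraries. All 24 named genes kept their direction under every alternative.

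Markers of other cell types were not called higher than in cells with none of the 3 genes. The comparison cells include clusters led by genes of blood and neural cells, described below. In that comparison, no tested gene of the neural, glial, mesenchymal, mural, erythroid, macrophage, epithelial and muscle lists was called higher, beside 10.8% of all genes. Called lower were 4 of 8 neural, 4 of 9 mural, 4 of 10 macrophage, 2 of 10 erythroid and 1 of 11 mesenchymal genes, beside 8.61% of all genes, and none of 3 glial, 6 epithelial and 5 muscle genes. Some globin genes and Pax3 were called higher in the comparisons described further on. The 12 neural genes summed to 139 and 137 CPM against 189 and 193 CPM in the comparison cells, with Sox1 and Olig2 at 0 in the selected cells of both libraries and Pax6 at 0 in MMPlow 2. The 10 mural genes summed to 58.5 and 51.7 CPM against 113 and 112 CPM, with Myh11 at 0 in MMPlow 1 and Kcnj8 at 0 in MMPlow 2. The 10 macrophage genes summed to 250 and 254 CPM against 332 and 343 CPM, with none at 0. The 10 erythroid genes, mostly globins, summed to 164 and 488 CPM against 474 and 202 CPM, so their order differed between the libraries. The other lists summed to 6.00 and 5.32 CPM (glia), 112 and 89.3 CPM (mesenchyme), 12 and 12.5 CPM (epithelium) and 40.5 and 40.7 CPM (muscle). At 0 in the selected cells were 3 of 8 glial genes in each library, the epithelial genes Pax8 and Cdh16 in both and Cdh1 in MMPlow 1, and Myod1 in MMPlow 2.

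The levels of Cdh2 and Spock2, both picked as markers from these libraries, rose with the number of selecting genes detected. Cells with 1 of the 3 lie just outside the threshold and cells with 2 just inside it, and no test is given because the number detected is the rule itself. In MMPlow 1, Cdh2 stood at 209 CPM with none, 456 CPM with 1, 1192 CPM with 2 and 1427 CPM with all 3, and in MMPlow 2 at 220, 477, 1291 and 1504 CPM. Spock2 stood at 8.49, 26.8, 131 and 219 CPM in MMPlow 1 and at 8.98, 21.0, 110 and 214 CPM in MMPlow 2. The step from 1 to 2 detected genes was the largest for both genes in each library, except for Spock2 in MMPlow 2, where the step from 2 to 3 was larger. Median depth also rose over these sets, from 3025 to 3462.5, 3759 and 5655 UMIs in MMPlow 1. After each cell was thinned to 2000 UMIs, Cdh2 was still detected in 26.7%, 42.6%, 79.8% and 84.3% of cells in MMPlow 1 and in 27.5%, 43.1%, 78.3% and 84.2% in MMPlow 2. Cells with at least 2 UMIs of Ptprc, which should lack Cdh2, gave 9.78% and 9.19% after thinning (median depths before thinning 3324.5 and 4242 UMIs). Without thinning the shares with Cdh2 were 37.1%, 57.0%, 90.0% and 96.4% in MMPlow 1. Thinned shares of cells with Spock2 were 1.69%, 5.05%, 20.2% and 26.5% in MMPlow 1, beside 1.32% in the Ptprc cells.

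**Figure D3:**
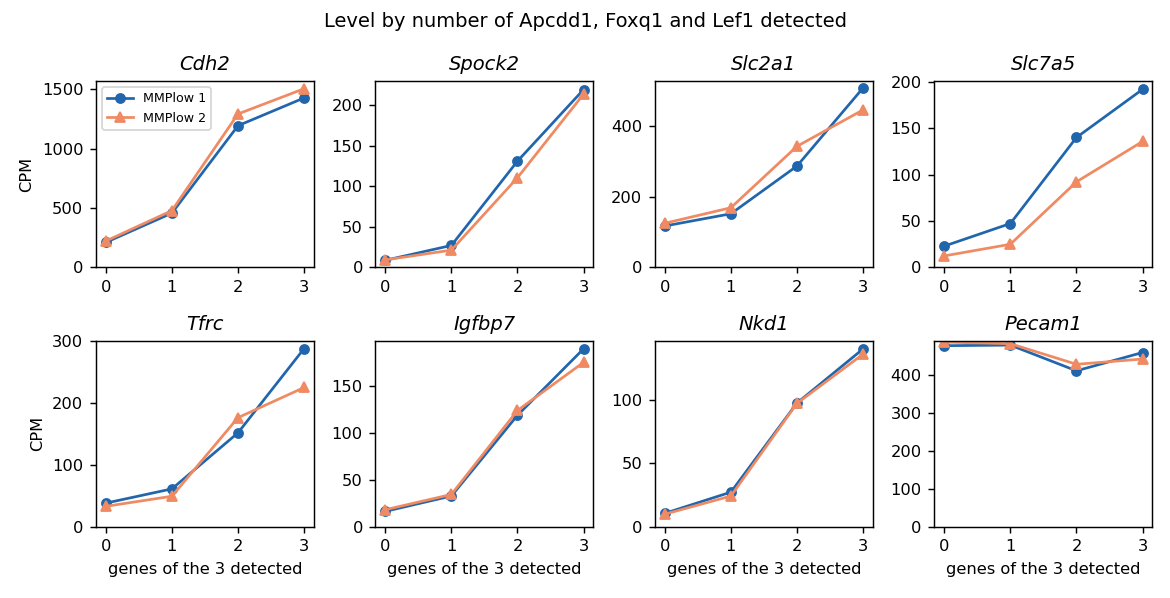
Summed level in CPM of 8 genes in endothelial cells with 0, 1, 2 or 3 of Apcdd1, Foxq1 and Lef1 detected, in MMPlow 1 (circles) and MMPlow 2 (triangles), with 1 sum per point. Cdh2 runs from 209 to 1427 CPM in MMPlow 1 and Spock2 from 8.49 to 219 CPM; Pecam1, 1 of the 6 genes of the endothelial gate, is drawn as a description only.

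The cells just outside the threshold differed by which gene was detected. Most of them carried Lef1 alone (2985 of 3505 MMPlow cells), with Apcdd1 alone in 367 and Foxq1 alone in 153. Spock2 stood at 18.9 and 15.8 CPM in the cells with Lef1 alone, at 74.9 and 63.3 CPM with Apcdd1 alone and at 59.1 and 45.0 CPM with Foxq1 alone. Cdh2 followed the same order, with 409 and 445 CPM, 712 and 734 CPM, and 700 and 630 CPM. Inside the threshold the combinations lay closer together: Cdh2 stood at 1277 and 1314 CPM with Apcdd1 and Lef1, at 1019 and 1268 CPM with Foxq1 and Lef1, and at 1194 and 1188 CPM with Apcdd1 and Foxq1.

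Endothelial cells were also clustered on 2000 variable genes without any gene of the rule. Of 21 clusters, clusters 2 and 7 held 708 of the 923 selected cells (76.7%) and 170 of the 183 with all 3 genes (92.9%). The same clusters held 374 of 6848 comparison cells (5.46%) and 14.4% of all endothelial cells. Selected cells made up 24.1% and 27.8% of cluster 2 in the MMPlow libraries and 34.3% and 34.7% of cluster 7, and at most 5.56% of any other cluster over all libraries, except the 5.95% of cluster 18, which is described with the MMPhigh libraries. The clusters are described and not tested. Comparison cells lay in every cluster. Cluster 11, with Gata4, Stab2, Oit3, Ehd3, Lyve1, Trpm3 and Gm16271 among its leading genes, held 433 comparison cells and 3 selected cells. Cluster 10, with Gja5, Dkk2, Pde3a, Prdm16, Vegfc and Bmx among its leading genes, held 490 and 16. The part of these clusters in the lower levels of such genes in the selected cells was not tested. Some cells that passed the endothelial gate lay in clusters led by genes of other cell types. In cluster 13 (Itgb3, Itga2b) lay 61 comparison and 1 selected cells, in cluster 14 (Ikzf1, Ikzf2) 106 and 9. Cluster 19 (Mrc1, Csf1r) held 57 and 2, and the globin-led clusters 15 and 16 held 110 and 5 and 306 and 6. Cluster 18 held 80 and 11. The part of these cells in the lower blood and neural genes was not tested. Cluster 2 was led by Cdh2, Dgki, Spock2, Enpp2 and Ctnnd2 at a median of 3201.5 UMIs, and cluster 7 by Vwa1, Pltp, Spock2, Itm2a and Cdkn1a at a median of 6177 UMIs.

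**Figure D4:**
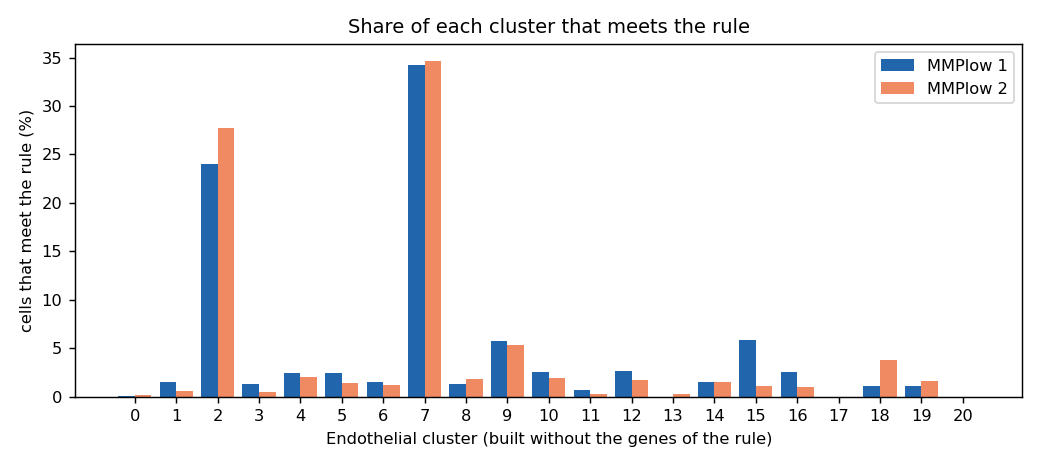
Percentage of each endothelial cluster's cells that meet the rule, in MMPlow 1 and MMPlow 2, as bars from 0, with clusters built without the genes of the rule. Clusters 2 and 7 stand between 24.1% and 34.7%, above all other clusters in both libraries.

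The selected cells of the 2 clusters differed in level. Cdh2 stood at 2220 and 2207 CPM in those of cluster 2 and at 959 and 909 CPM in those of cluster 7. Mfsd2a stood at 42.3 and 40.5 CPM and at 13.8 and 17.1 CPM, whereas Slc2a1 was similar, at 370 and 348 CPM and at 385 and 440 CPM. The MMPlow cells that met the rule outside clusters 2 and 7 had lower levels of several genes, such as Cdh2 at 557 and 661 CPM, Spock2 at 42.6 and 38.8 CPM and Tfrc at 44.4 and 97.8 CPM. Slc2a1 was lower by less, at 245 and 270 CPM. In MMPlow 2, Itm2a stood higher outside than in cluster 2 (143 against 95.2 CPM), and Tnfrsf19 higher than in cluster 7 (72.5 against 65.6 CPM). Comparison cells inside clusters 2 and 7 had Cdh2 at 1126 and 1297 CPM and Spock2 at 52.5 and 66.2 CPM, above the 154 and 166 CPM and the 5.85 and 6.10 CPM of those outside. Only the genes of the rule were kept out of the clustering, so the genes compared here could shape the clusters. Cdh2 and Spock2 were themselves leading genes of cluster 2, and Spock2 of cluster 7. These levels by cluster are thus a description and no separate support.

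Against gated arterial cells (143 and 188 in the MMPlow libraries, with at least 2 of Gja4, Gja5, Bmx and Hey1 and no Aplnr), the test called 2022 of 10513 genes (19.2%), 9.25% higher and 9.99% lower. Of 22 central nervous system genes tested, 15 were higher and 2, Ptn and Cgnl1, lower, with a median log2 fold of 1.56. Of 12 Wnt targets tested, 7 were higher, Ccnd1 among them, and 3 lower, which were Sox17, Cd44 and Dkk2. All 14 arterial genes left after removal of the gate's own genes stood lower or uncalled: 12 were called lower and none higher, among them Vegfc at 59.0 and 67.3 CPM against 602 and 661 CPM. Only the arterial set was chosen by arterial genes, so the part of the gate in these counts cannot be told apart. Of 9 fenestrated and peripheral genes tested, 5 were lower and 2 higher, Plpp3 and Emcn, the latter at 684 and 792 CPM against 656 and 668 CPM. The largest folds were those of Ccdc141, the reelin receptor Lrp8 (98.6 and 128 CPM against 7.69 and 1.21 CPM), Tnfrsf19, Htra3 and Spock2. The smallest were those of 4930573H18Rik, Tox2, Pde3a (14.0 and 13.7 CPM against 494 and 472 CPM), Prdm16 and Trim46. Slco1c1 was not called in this comparison, at 8.01 and 11 CPM against 13.5 and 3.63 CPM, nor was Abcg2. Of the 18 genes each of S phase and of G2 and M phase, 7 in each list were higher and none lower, and 8 of 19 glycolysis genes were higher. The embryonic globin genes Hbb-y and Hba-x were called higher, with Hbb-y at 67.1 and 224 CPM against 69.2 and 89.6 CPM, a difference seen in MMPlow 2 alone.

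Against gated venous cells (1116 and 1298, with at least 2 of Aplnr, Nr2f2 and Nrp2 and no Gja4 or Gja5), 2249 of 12406 genes were called (18.1%), 9.74% higher and 8.39% lower. Of 13 Wnt targets tested, 7 were higher, Sox17 among them, and 2 lower, Ccnd1 and Tle4, while Cd44 and Dkk2 were not called. There 21 of 25 central nervous system genes were higher and none lower, with a median log2 fold of 1.93, and 10 of 14 arterial genes were higher and none lower. Only the venous set was chosen for venous genes and for absence of Gja4 and Gja5. The part of the gate in the arterial count thus cannot be told apart. Against all comparison cells 7 arterial genes rose and 9 fell. Mecom, which was lower than in arterial cells (log2 fold −1.90 ± 0.053), was higher than in venous cells (log2 fold 0.60 ± 0.045). Jag1 stood at 77.6 and 73.0 CPM against 17.3 and 14.1 CPM. Here 9 of 18 S phase genes were lower and none higher, 2 glycolysis genes were higher and 8 lower, and the globin gene Hbb-bh1 was called higher, at 20.5 and 55.5 CPM against 20.2 and 25.1 CPM. The largest folds were those of 1700111E14Rik, 1700018A04Rik, Mfsd2a, Htra3 and Spock2, and the smallest those of Lyve1, Gm16271, Sorcs1, Oit3 and Gata4.

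Against the 1146 and 1410 cells with at least 2 of Tll1, Flrt2, Adgrg6 and Lhx6, another endothelial group, 2943 of 12569 genes were called (23.4%), 12.9% higher and 10.6% lower. Of 26 central nervous system genes 21 were higher and none lower (median log2 fold 1.95), 12 of 17 arterial genes were higher and 3 lower, and 7 of 9 venous genes were lower. Of 13 Wnt targets tested, 7 were higher, Sox17 among them, and 1, Tle4, was lower. Ccnd1, Cd44 and Dkk2 were not called. Mfsd2a stood at 20.5 and 23.9 CPM against 0 and 0.714 CPM, and Htra3, Spock2, 1700018A04Rik and 1700111E14Rik followed. Ccdc3, Egfem1 (5.50 and 11 CPM against 132 and 161 CPM), Col13a1, Sorcs1 and Pak7 had the smallest folds. Among markers of other cell types 5 globin genes (Hbb-bh1, Hbb-y, Hba-x, Hba-a1 and Hba-a2) were called higher, and Pax3, a factor of muscle and neural crest progenitors, was called higher at 7.51 and 5.70 CPM against 3.07 and 3.57 CPM. The part of erythroid RNA in these comparisons was not tested. The 4 comparisons share the selected cells, so their counts are not independent. Nkd1 stood between 7.69 and 10.9 CPM in the arterial, venous and Tll1-group cells of both libraries, and Axin2 between 3.37 and 6.05 CPM. All of these sets leave out every cell with a UMI of Apcdd1, Foxq1 or Lef1. The values thus do not describe arterial, venous or Tll1-group endothelium as a whole.

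The MMPhigh libraries held 12 of these cells, too few for a test between MMPhigh and MMPlow, so their values carry exact 95% Poisson intervals that cover counting error only. In MMPhigh 1, 7 of the 9 cells fell in cluster 18, which was led by the neural genes Dcc, Ctnna2, Map2 and Tubb3, and the 12 neural genes summed to 1813 CPM in the 9 cells. The same sum was 285 CPM in the 3 cells of MMPhigh 2, all in cluster 2, and 857 and 687 CPM in the MMPhigh comparison cells. The part of neural RNA in the MMPhigh values was not tested. Cdh2 stood at 1497 CPM (1169 to 1888) in MMPhigh 1 and 3449 CPM (3072 to 3860) in MMPhigh 2, against 33.4 and 38.9 CPM from 3 UMIs each in the comparison cells. Spock2 stood at 422 CPM (258 to 651) and 421 CPM (297 to 581), against 1 and 0 UMIs. The comparison cells numbered 19 in MMPhigh 1 and 4 in MMPhigh 2, with 89820 and 77188 summed UMIs, so single UMIs can set the order of a gene. Of the 12 genes with the largest folds in MMPlow, 11 were higher than in the comparison cells in MMPhigh 1 and 12 in MMPhigh 2, and of the 20 central nervous system genes 16 were higher, 3 lower and 1 equal in each. Of all 14038 genes tested in MMPlow, 33.0% were higher and 43.6% lower in MMPhigh 1, and 35.6% higher and 37.2% lower in MMPhigh 2, with the rest equal. In the 2 cells of MMPhigh 1 outside cluster 18, which hold 15205 UMIs, 7 of the 12 genes were higher than in the comparison cells, 3 lower and 2 at 0 in both sets. Of the 20 central nervous system genes 14 were higher, 3 lower and 3 at 0 in both sets, and of all 14038 genes 23.4% were higher and 48.8% lower. There Cdh2 stood at 2631 CPM and Spock2 at 658 CPM. With 2 cells, 5 of the 12 genes (Mfsd2a, 1700111E14Rik, Dgki, Cdkn1a and Egflam) and 5 of the 20 had no UMI.

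**Figure D5:**
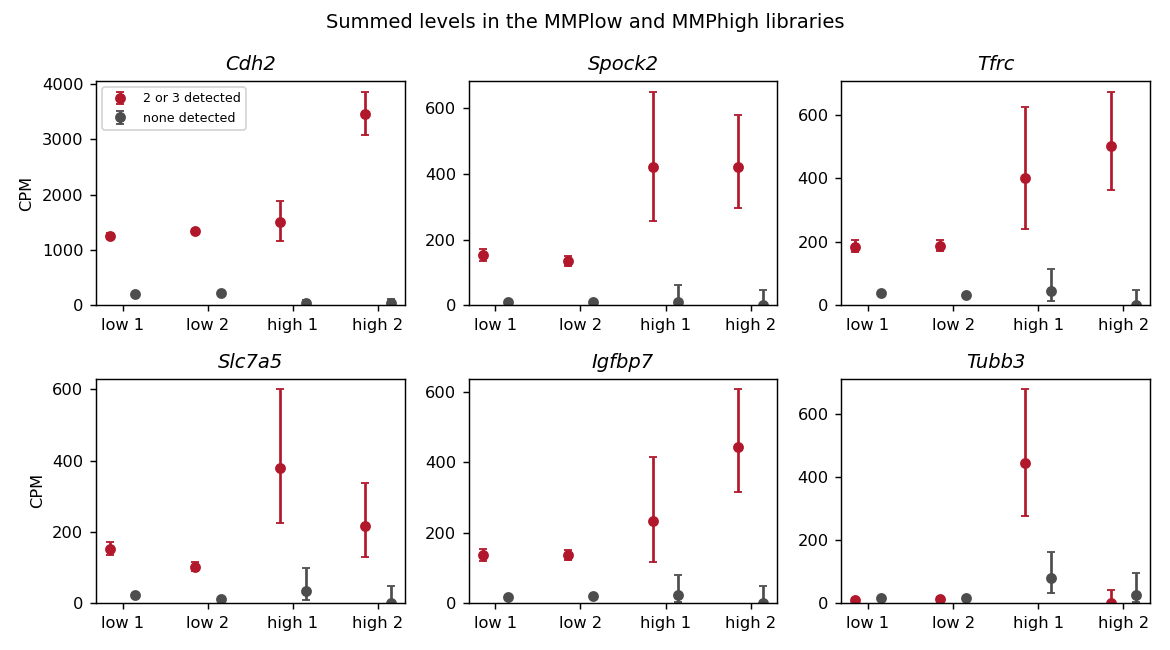
Summed level in CPM of 6 genes in cells with at least 2 of the 3 selecting genes (red) and with none (grey) in each library, with exact 95% Poisson intervals for counting error. Cdh2 and Spock2 are higher in the red set in all 4 libraries, and the neural gene Tubb3 stands at 443 CPM in the red set of MMPhigh 1.

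The share of endothelial cells that met the rule was 5.46% (424 of 7769) and 5.31% (487 of 9171) in MMPlow and 20.5% (9 of 44) and 15.8% (3 of 19) in MMPhigh. Without the neural-led cluster 18, left out after its values were seen, the MMPhigh 1 share was 7.41% (2 of 27). With every cell thinned to 2000 UMIs and the rule applied again, it was 3.01% (exact Clopper-Pearson 95% interval 2.59 to 3.48) and 2.51% (2.16 to 2.91) in MMPlow and 12.9% (3.63 to 29.8, 4 of 31 cells) and 7.14% (0.181 to 33.9, 1 of 14 cells) in MMPhigh. The thinned share averaged 2.76% ± 0.354 (SD, n = 2) over the MMPlow libraries. Over the MMPhigh libraries it averaged 10.0% ± 4.07 (SD, n = 2), a difference of 7.26 percentage points with a two-sided exact permutation p of 0.33, the smallest that 2 against 2 libraries allow. This difference was 3.42 percentage points without cluster 18 (MMPhigh 1 then 5.26%, 1 of 19 cells) and 4.38 without the MMPhigh 1 library. It turned to −1.02 with cells thinned to 1000 UMIs, where no MMPhigh cell met the rule. The order also turned when all kept cells were the denominator: the thinned share was then 0.991% ± 0.131 (SD, n = 2) for MMPlow and 0.0598% ± 0.044 (SD, n = 2) for MMPhigh, where few cells were endothelial. Without thinning, the shares of all kept cells were 2.51% ± 0.0365 (SD, n = 2) and 0.145% ± 0.0837 (SD, n = 2).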

How the data were processed

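Single-cell RNA was measured in 2 MMPlow and 2 MMPhigh libraries of CD31-positive E11.5 AGM cells. The deposited values are UMI counts per gene and barcode, not normalized, over 32285 features; the authors' matrices name Cell Ranger 7.0.1, per the file headers, whereas the submitters' processing notes name Cell Ranger 2.1.1 and mm10, and which version made the counts is not given in the sources used here. Counts from overlapping or near-identical genes cannot be told apart. The members, comparison gates and gene lists were chosen with earlier results of these data known, so they are not independent support; lists overlap in some genes. A few genes counted in the lists are not reported here by name.

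UMI counts were summed per library and cell set, and sets with at least 20 cells in a library were tested with edgeR 4.0.16 (R 4.3.3; TMM, filterByExpr, robust quasi-likelihood F-test, two-sided), which left MMPlow 1 and MMPlow 2 in all 4 comparisons. Both sums of a library come from that library, which pairs them and is a term of the fit. An adjusted p under 0.05 was a call. The SE of a log2 fold was derived from the fold and its F statistic and is not a spread between libraries. Genes of the rule or gate entered no count. Levels are CPM of the summed UMIs. Genes named were the 12 largest and 12 smallest log2 folds among calls (5 and 5 for the other comparisons) with the same direction in each library and at least 20 CPM in the higher set, plus listed genes. Clusters were made with scanpy 1.11.5 (30 components, 15 neighbours, Leiden resolution 1). Scrublet called 2 of 16700 cells in MMPlow 1 and 0 of 4403 in MMPhigh 1 and so had not worked there. Doublets were kept, and an alternative left out scores above the cut for the top 6%. That cut left out 207 of 4403 cells in MMPhigh 1, and no endothelial cell of either MMPhigh library. The fit was tested on simulated data with a fixed dispersion and few changed genes. That setting differs from the real sums, so the simulation cannot show how many of the real calls hold. Alternatives used DESeq2 1.42.0, other filters, depths and cell sets. Kept barcodes shared by pairs of libraries numbered 7 to 89. PCR copies were collapsed by UMI; intervals cover counting error only.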

Additional observations from a re-analysis of the deposited data

Results flagged for a closer look

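Bsg (basigin), a listed gene of central nervous system endothelium, was higher in the selected cells of both MMPlow libraries, at 248 CPM in each against 210 and 206 CPM in the comparison cells. In both MMPhigh libraries it was lower, at 232 CPM (11 UMIs) against 379 CPM and 353 CPM (31 UMIs) against 596 CPM. The mean log2 difference over the MMPhigh libraries, with the same constant added to every CPM value, was −0.71. The difference between MMPhigh and MMPlow was not tested, and 15 genes were checked in this way. The MMPhigh values rest on 9 and 3 selected cells and on 19 and 4 comparison cells. Of the 9, 7 lay in the neural-led cluster 18, and the 12 neural genes summed to 1813 CPM over the 9; the part of neural RNA in the Bsg value was not tested.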

How the results depend on the processing

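Against comparison cells with none of the 3 genes, the 2725 calls became 705 with DESeq2, 1746 with all 3 genes required, 1350 with cells of at least 5000 UMIs, 1798 with sums of at least 5 cells (which adds MMPhigh 1), 1390 at matched depth and 1256 with the rule applied after thinning. Without the library (replicate) block they became 1209, the 8 lower peripheral genes became 5, and calls against venous-gated and Tll1-group cells fell to 1232 and 1754. At matched depth the arterial and Tll1-group calls were 1033 and 1748. Fewer cells enter the sums in several of these settings; otherwise the cause was not tested. RLE scaling, other low-count filters and a 10% mitochondrial limit, tried for the comparison with cells with none of the 3 alone, kept the 2725 within 1.5 times, as did removal of high doublet scores in all 4 comparisons. In MMPlow 1, where Scrublet had not worked, that removal took out 17 of 424 selected cells. It therefore cannot decide the part of doublets in the calls. Of 806 counts of lists under alternatives, 653 stayed within 1.5 times and 153 moved; counts of lower venous, haemogenic, cell cycle, mitochondrial and glycolysis genes were among those that moved. With 1 library left out, 1 pair of sums has no residual degrees of freedom, so folds were given with no test. Of 480 values of single named genes, 456 stayed on their side of the threshold or within their error, 23 folds moved when a library was left out, Gata4 lost its call under DESeq2 and none changed sign. The difference in share between MMPhigh and MMPlow ran from 4.38 to 10.1 percentage points when a library was left out, was 3.42 without cluster 18 (6.18 not thinned; chosen after seeing the data), and turned to −2.37 (not thinned) and −0.93 (thinned) over all kept cells and to −1.02 when cells were thinned to 1000 UMIs, where 0 of 10 and 0 of 7 MMPhigh cells met the rule. The 12 MMPhigh cells limit every MMPhigh value.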
